A study of Homo sapiens with 6 samples.

Results

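ELK1, ELK3, ELK4, ETS1, ETS2, ERF, GABPA, ELF1 and ETV6 are transcription factors of the ETS family, and SRF is the partner with which the first 3 bind DNA. These 10 genes of the 24526 in the deposited table were chosen by symbol. ELK1 was selected on its lower level in RIPK4-silenced cells of these same libraries, and the other 9 for their relation to it. Differences between the groups in the 10 genes are therefore given as a description that supports nothing. Where a count over all genes or over a list takes in ELK1, nothing is read from ELK1's place in it.

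Poly(A) RNA was sequenced from WM266.4, an established human melanoma line, in 6 bulk libraries. Of these, 3 came from cultures given the control siRNA Silencer Select Negative Control No. 2 (neg.si), and 3 from cultures given a single RIPK4 siRNA, Silencer Select s28865 (RIPK4.si). RNA was isolated 48 h after transfection, with 3 biological replicates per group, and the comparison asks which transcripts differ when RIPK4, a serine/threonine kinase, is silenced. Because a single siRNA was used, effects of lower RIPK4 and of the siRNA's own sequence cannot be told apart.

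The neg.si libraries held 31688095, 30539087 and 30056850 counts in all, in the order of replicates 1, 2 and 3. The RIPK4.si libraries held 28464057, 30751441 and 30772817 counts in the same order, which is kept wherever levels are listed. Levels are given in CPM, the depth-scaled unit of counts, with library sizes normalized by TMM. Fold changes are on the log2 scale, RIPK4.si over neg.si, with standard error (SE) or 95% interval. In bulk RNA, fewer cells with a transcript and less of it per cell cannot be told apart. All 10 melanocyte lineage markers looked for were in the table, and their summed level was 4043, 3812 and 3609.7 CPM in neg.si and 2715, 2791 and 2676 CPM in RIPK4.si. Their sum was lower in every RIPK4.si library than in any neg.si library, and TYR had the most counts of them in each library. The 10 did not move alike: the log2 fold change was negative for TYR, DCT, PMEL, S100B and SOX10 and positive for MITF, MLANA, TYRP1, PAX3 and S100A1. Their median was -0.05, the groups had no overlap in 3 of them (17.6% over all genes), and their part in the results was not tested. Of the markers of other cell types, the 4 of keratinocytes summed to 12.1, 10.5 and 10.5 CPM in neg.si and 14.6, 16.2 and 12.2 CPM in RIPK4.si. KRT10 made up most of that sum, while KRT5 and KRT14 were at or near 0. The 2 of 3 leukocyte markers in the table summed to between 0.355 and 0.707 CPM, PECAM1 as the endothelial marker was between 0.252 and 1.07 CPM, and the 3 fibroblast markers summed to between 0.346 and 1.67 CPM. Between the leukocyte markers, mean CPM was higher for PTPRC in neg.si (0.312 against 0.143) and for CD3E in RIPK4.si (0.354 against 0.237). LUM was the most abundant fibroblast marker in each library, and the part of these markers was not tested.

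ETS factors share a winged helix-turn-helix DNA-binding domain that reads a GGA core. ELK1, ELK3 and ELK4 are the ternary complex factors: they bind beside a dimer of SRF at serum response elements, and phosphorylation by ERK and other MAP kinases lets them drive immediate-early genes such as FOS and EGR1. SRF also works with the actin-regulated coactivators MRTFA and MRTFB on cytoskeletal genes, and in melanoma ERK signalling is often raised by mutation of BRAF or NRAS.

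A gene was called when its adjusted p was under 0.05 in the quasi-likelihood test of edgeR, with Benjamini-Hochberg adjustment over the 16297 genes that passed the filter on low counts. By this rule 125 genes were called (0.767%), of which 61 rose (0.374%) and 64 fell (0.393%). An unadjusted p under 0.05 was found for 1768 genes (10.8%), and DESeq2 called 430 of 15490 (2.78%). The groups had no overlap between their libraries in 2873 genes (17.6%). Of the 10 melanocyte markers edgeR called 1, PMEL, which fell and is named after its values were seen, and DESeq2 called 3. The edgeR count for these markers was 0 without neg.si replicate 2, or without RIPK4.si replicate 1, 2 or 3, with 4 at an unadjusted p under 0.05 in all 6 libraries. The number called depended on single libraries: 70, 0 and 295 without neg.si replicate 1, 2 or 3, and 0, 4 and 0 without RIPK4.si replicate 1, 2 or 3. The edgeR counts at an unadjusted p under 0.05 were then 2268, 1153, 2380, 1426, 1472 and 1086, and DESeq2 was run only on all 6 libraries. The siRNA's target RIPK4 had 85.8, 76.5 and 54.7 CPM in neg.si and 19.9, 16.7 and 21.5 CPM in RIPK4.si. Each RIPK4.si library was below each neg.si library, and the RIPK4.si mean was 26.8% of the neg.si mean.

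ELK1 lies on the minus strand of the X chromosome, at chrX:47635521-47650604 of GRCh38. Its level was 62.8, 54.2 and 38.2 CPM in neg.si and 17.3, 21.2 and 17.8 CPM in RIPK4.si. The neg.si libraries were high, with replicate 3 the lowest of them, and every RIPK4.si library was below every neg.si library. Raw counts behind these levels were 1946, 1627 and 1215 in neg.si and 509, 613 and 553 in RIPK4.si, so counting error was small beside the spread between replicates. Mean ELK1 was 51.8 ± 12.5 CPM over the neg.si libraries and 18.8 ± 2.12 CPM over those of RIPK4.si (SD, n = 3 each), or 36.3% of neg.si. On the log2 scale its fold change was -1.46 (SE 0.208, 95% interval -1.93 to -0.995). It was -1.64 to -1.28 when any 1 library was left out, and no annotated exon of another gene overlaps the exons of ELK1. With each library's trend on GC content removed, ELK1 had 54.5, 53.0 and 45.0 CPM in neg.si and 17.2, 20.5 and 18.0 CPM in RIPK4.si, again without overlap between the groups and with less spread within neg.si.

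**Figure D1:**
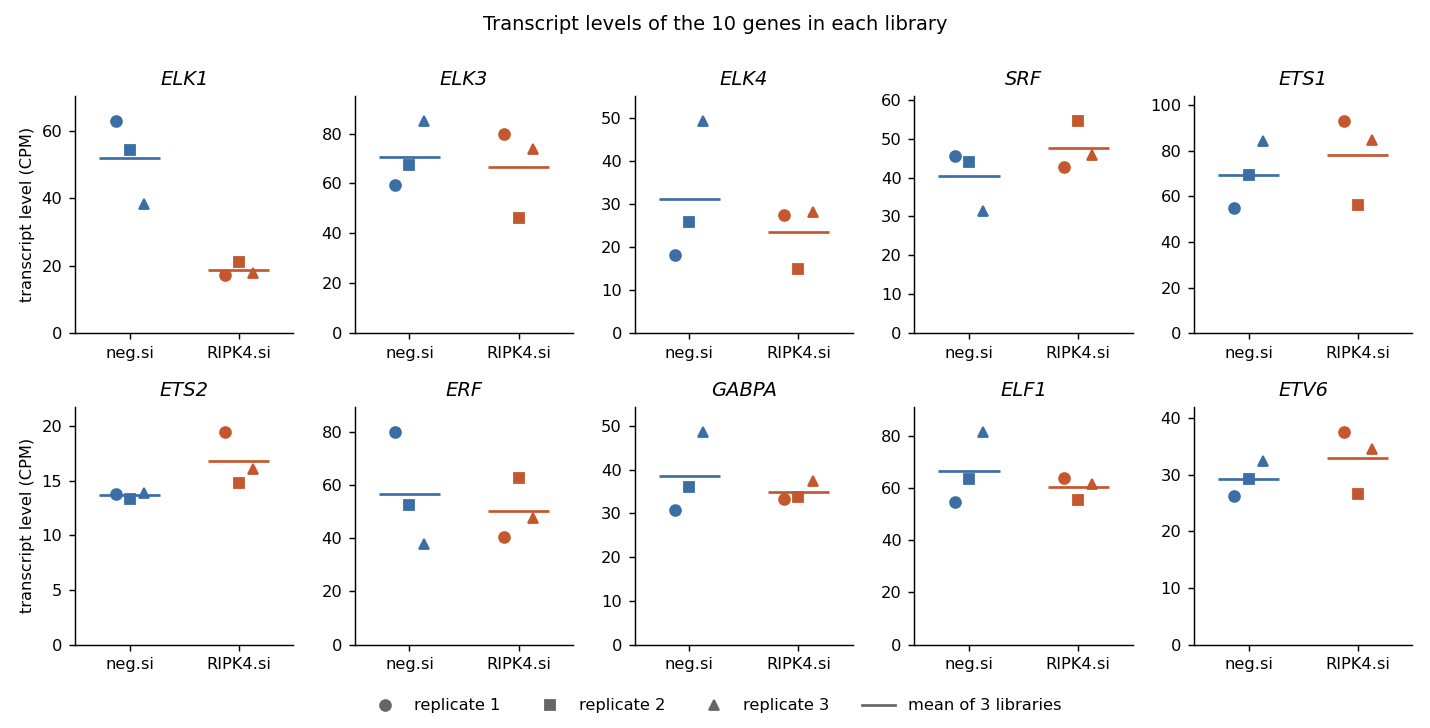
Transcript level in CPM (y axis, from 0) of each of the 10 genes in the 3 neg.si and 3 RIPK4.si libraries (points, a symbol per replicate; lines are means of 3 libraries). In ELK1 the neg.si libraries lie between 38.2 and 62.8 CPM, above all RIPK4.si libraries, ETS2 is the other gene whose groups do not overlap, and in the remaining 8 genes the groups overlap.

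A sequence of 7 bases, acagctt, was singled out earlier in these same data by a search over 3′ UTRs, so its matches in the 10 genes are a description, and their part in the result was not tested. The longest annotated 3′ UTR of ELK1, of 1311 bases, holds 2 copies of it, those of ELK4 and ETS1 hold 1 copy each, and those of the other 7 genes hold 0. Of other called genes described further on, MCL1 has 3 copies, EGR3 has 2, CCN2 has 1, and CCN1, HDAC1, ZNF853, CSF3 and EXOC3L2 have 0. Over all tested protein-coding genes 13.2% hold 1 copy and 2.79% hold 2 or more. Among the 10888 genes with 0 copies 53 rose and 37 fell, among the 1714 with 1 copy 4 rose and 10 fell, and among the 362 with 2 or more 2 rose and 11 fell. These counts restate the choice of the sequence, and nothing is read from them. The siRNA's sequence is not in the files, so pairing with it was not examined. The 4 places are shown to let the surrounding bases be compared. They are read on the minus strand of GRCh38, on which all 3 genes lie, at chrX:47636633-47636655 and chrX:47636203-47636225 for ELK1, chr1:205612116-205612138 for ELK4 and chr11:128459723-128459745 for ETS1. Capitals mark the 7 bases.
ELK1 copy 1: gaaaacacACAGCTTccacaact
ELK1 copy 2: tctctcagACAGCTTatcctttt
ELK4 copy: tgttttccACAGCTTtattccta
ETS1 copy: tagttaagACAGCTTtgtcgatc
The copies in ELK1 start at bases 185 and 615 of its 3′ UTR. The 3 genes differed in their group values: ELK1 had a log2 fold change of -1.46, against -0.40 in ELK4 and 0.17 in ETS1.

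The transcripts most like ELK1 were found by the root mean square difference between centred log2 CPM profiles over the 6 libraries, among 13012 protein-coding genes. Among the nearest were ZNF853 (0.0850), CSF3 (0.0920), EXOC3L2 (0.109) and ZBTB46 (0.124). CSF3, which encodes the cytokine G-CSF, had 2.74, 2.56 and 2.01 CPM in neg.si and 0.886, 0.969 and 0.836 CPM in RIPK4.si, high and low in the same groups as ELK1. These 4 genes were highest in neg.si replicate 1, as ELK1 was. RIPK4 ranked 55 by the same measure. Of the other 9 genes, ERF came nearest to ELK1, at rank 2265, and ETS1 was farthest, at rank 10893. The measure includes the difference between groups on which ELK1 was selected.

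ELK3 and ELK4 are the other ternary complex factors, and ELK3, also called Net, can repress its targets until it is phosphorylated. ELK3, at chr12:96194375-96269824 on the plus strand, had 59.4, 67.4 and 85.0 CPM in neg.si and 79.8, 46.3 and 73.7 CPM in RIPK4.si. The groups overlapped, with the highest level in neg.si replicate 3 and the lowest in RIPK4.si replicate 2. A long non-coding RNA gene that is not in the table overlaps 209 of its exon bases on the opposite strand. ELK3 had a log2 fold change of -0.08 (95% interval -0.59 to 0.43), which was 0.07 with neg.si replicate 3 left out and 0.13 with RIPK4.si replicate 2 left out. ELK4, also called SAP1, lies at chr1:205597556-205631962 on the minus strand. Its level was 18.2, 25.8 and 49.4 CPM in neg.si and 27.5, 14.9 and 28.2 CPM in RIPK4.si. Neg.si replicate 3 was far above the rest, and the other 5 libraries overlapped. For ELK4 the log2 fold change was -0.40 (95% interval -1.23 to 0.42) and 0.10 without neg.si replicate 3, so its sign rests on that library. Exons of ELK4 share 422 bases with MFSD4A on the opposite strand. Counting ignored strand, so reads there cannot be assigned, although MFSD4A had 255 counts in all libraries together against 5023 for ELK4.

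SRF, the MADS-box factor that binds the CArG box, lies at chr6:43171269-43181506 on the plus strand. Its level was 45.5, 44.02 and 31.4 CPM in neg.si and 42.6, 54.5 and 45.8 CPM in RIPK4.si. Neg.si replicate 3 was the lowest and RIPK4.si replicate 2 the highest, and the groups overlapped. SRF had a log2 fold change of 0.24 (95% interval -0.18 to 0.66), which was 0.10 to 0.35 when any 1 library was left out. SRF is known to act on its own promoter, and 9 of the 10 genes had a promoter in the RefSeq table (GRCh38.p14, 250 bases before to 50 after the gene start), while ETS1 had no entry. A gene can have several windows in that table, 16 for these 9 genes and 35116 for all 27305 genes, and it is counted once if any window matches. A CArG box was searched on both strands, which read alike for this motif. It was found in 438 of 27305 genes (1.60%), and among the 9 in SRF alone. That stretch holds 2 boxes, 30 and 10 bases before the start, at chr6:43171239-43171268 on the plus strand, and is shown because both stand side by side. Capitals mark the boxes.
SRF: CCATATAAGGagcggcctcgCCATAAAAGG
A match is a description and not a site.

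ETS1 and ETS2 are the founding members of the family, both phosphorylated by ERK next to their Pointed domain. ETS1, at chr11:128458761-128587558 on the minus strand, had 54.8, 69.3 and 84.4 CPM in neg.si and 93.1, 56.2 and 84.8 CPM in RIPK4.si. Its groups overlapped, and the lowest level was in neg.si replicate 1. ETS2, at chr21:38805183-38824955 on the plus strand, had 13.8, 13.4 and 13.9 CPM in neg.si and 19.4, 14.8 and 16.0 CPM in RIPK4.si. Each RIPK4.si library was above each neg.si library, and the neg.si libraries were within 1.04-fold of each other, the least spread among the 10 genes. Raw counts behind the neg.si levels of ETS2 were 428, 401 and 441, so counting error was not small beside that spread. A long non-coding RNA gene with 7 counts in all overlaps 112 exon bases of ETS2 on the opposite strand. Mean ETS2 was 13.7 ± 0.290 CPM over the neg.si libraries and 16.8 ± 2.39 CPM over those of RIPK4.si (SD, n = 3 each). ETS1 had a log2 fold change of 0.17 (95% interval -0.34 to 0.68), which was 0.03 to 0.37 when any 1 library was left out. That of ETS2 was 0.29 (95% interval -0.09 to 0.67), and 0.18 to 0.38 when any 1 library was left out.

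ERF and ETV6 are repressors of the family, ERF leaving the nucleus when ERK phosphorylates it and ETV6 acting through polymers of its Pointed domain. ERF, at chr19:42247569-42255128 on the minus strand, had 79.9, 52.7 and 37.8 CPM in neg.si and 40.4, 62.6 and 47.6 CPM in RIPK4.si. The groups overlapped, and neg.si replicate 1 alone was above all RIPK4.si libraries. Another protein-coding gene on the same strand, not in the table, shares 181 exon bases with ERF, so reads there are uncertain. For ERF the log2 fold change was -0.18 (95% interval -0.79 to 0.44), and 0.17 without neg.si replicate 1. ETV6, at chr12:11649854-11895402 on the plus strand, had 26.1, 29.1 and 32.4 CPM in neg.si and 37.5, 26.5 and 34.6 CPM in RIPK4.si. RIPK4.si replicate 1 was the highest and neg.si replicate 1 the lowest, with overlapping groups and a log2 fold change of 0.17 (95% interval -0.23 to 0.57), which was 0.07 to 0.31 when any 1 library was left out.

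GABPA is the DNA-binding subunit of GABP, an activator of genes for mitochondrial function, and ELF1 is an activator first described in lymphocytes. GABPA, at chr21:25734570-25772460 on the plus strand, had 30.7, 36.1 and 48.5 CPM in neg.si and 33.2, 33.7 and 37.5 CPM in RIPK4.si. Neg.si replicate 3 was above the RIPK4.si libraries and neg.si replicate 1 below them, so the groups overlapped. GABPA had a log2 fold change of -0.14 (95% interval -0.57 to 0.28) and 0.06 without neg.si replicate 3. ATP5PF overlaps 692 exon bases of GABPA on the opposite strand, with 16967 counts over all libraries against 6690 for GABPA, so the level of GABPA is uncertain by the reads that fall there. ELF1, at chr13:40931924-41061440 on the minus strand, had 54.7, 63.2 and 81.2 CPM in neg.si and 63.8, 55.4 and 61.4 CPM in RIPK4.si. It was highest in neg.si replicate 3 and lowest in neg.si replicate 1, with RIPK4.si between. Its log2 fold change was -0.14 (95% interval -0.54 to 0.25) and 0.03 without neg.si replicate 3.

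Of the 10 genes, all of which passed the filter on low counts, 1 was called, beside 0.767% of all genes tested, and nothing is read from it because ELK1 was selected on this contrast. The gene called was ELK1, and it was not called without neg.si replicate 2 or without RIPK4.si replicate 1, 2 or 3, when the count by edgeR was 0. The groups did not overlap in 2 of the 10, ELK1 and ETS2, beside 17.6% of all genes, and nothing is read from that count either. Fold changes of the other 9 genes lay between -0.40 and 0.29, and all their 95% intervals included 0. No sign among the 10 changed under another normalization, filter or DESeq2.

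**Figure D2:**
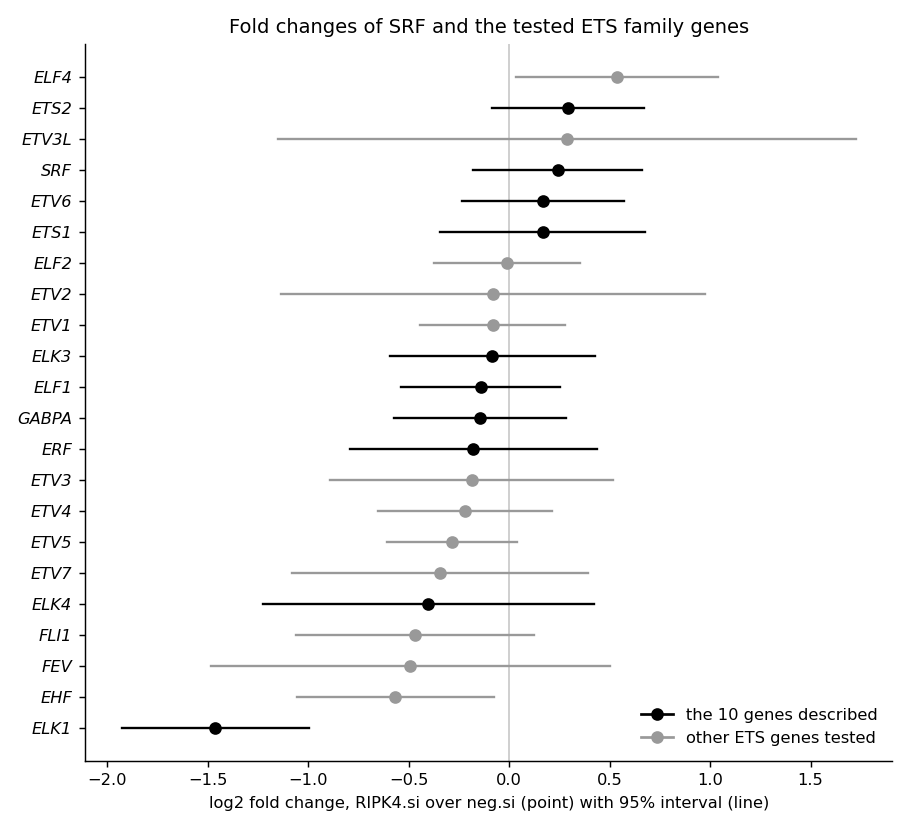
Log2 fold change of RIPK4.si over neg.si (x axis, points) with its 95% interval (lines) for SRF and the 21 tested ETS family genes, with the 10 genes in black and the others in grey. ELK1 stands at -1.46 and the other 9 black points lie between -0.40 and 0.29 with intervals across 0.

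Within neg.si the 10 genes showed 2 patterns, which ETS2 followed in name only. ELK1, SRF and ERF were highest in replicate 1 and lowest in replicate 3, and the other 7 were highest in replicate 3. Of these 7, ETS2 was nearly flat, at 13.82 CPM in replicate 1 and 13.88 CPM in replicate 3, a difference within counting error. ERF differed 2.11-fold between these libraries and ELK4 2.71-fold, the only genes of the 10 above 2-fold. In RIPK4.si, ELK1, SRF and ERF were highest in replicate 2, where 6 of the other 7 genes were lowest, GABPA being the exception. The same split is seen in base composition: exons of ELK1, SRF and ERF held 56.2%, 60.8% and 63.9% G and C. Those of the other 7 held between 38.4% and 51.2%, the last being the nearly flat ETS2. Across the 10 genes, which share the same libraries, GC content and the log2 difference between neg.si replicates 1 and 3 had a Pearson r of 0.946 (n = 10 genes, a description with no test). With each library's trend on GC content removed, r was 0.644 and all 10 genes were within 2-fold. The difference was then 0.23 in place of 1.08 for ERF, 0.28 in place of 0.72 for ELK1 and -0.91 in place of -1.44 for ELK4, the largest that remained. Whether the cells or the libraries differed in this way was not tested.

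**Figure D3:**
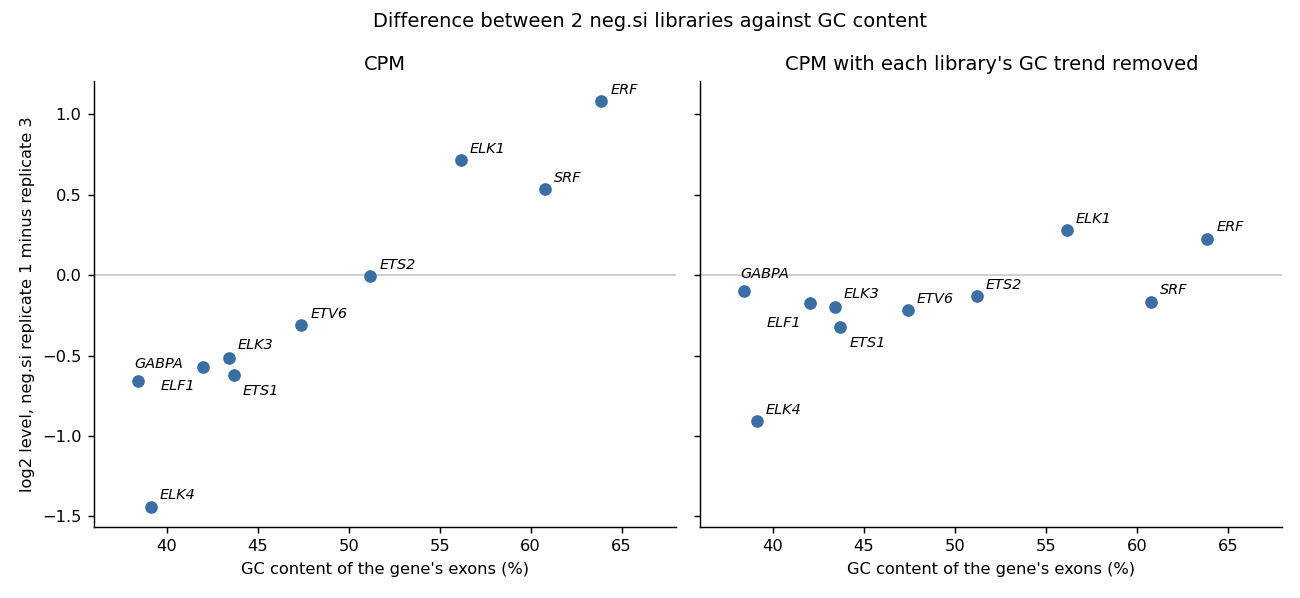
Log2 difference in level between neg.si replicates 1 and 3 (y axis) against the GC content of exons in percent (x axis), a point per gene, before (left) and after (right) the GC trend of each library was removed. On the left the points run from -1.44 in ELK4 to 1.08 in ERF, and on the right from -0.91 in ELK4 to 0.28 in ELK1.

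Levels of different genes were compared as CPM per kb of exon in neg.si (mean ± SD, n = 3). ERF was first at 17.4 ± 6.53, followed by ELK1 at 15.2 ± 3.67, ELK3 at 15.2 ± 2.82 and ELF1 at 14.95 ± 3.05. These 4 overlapped in their libraries and cannot be ranked beyond their spread. ETS1 at 9.72 ± 2.07, SRF at 9.53 ± 1.83 and GABPA at 6.69 ± 1.59 formed a middle group, again overlapping from neighbour to neighbour. ETV6 followed at 4.04 ± 0.432, apart from both neighbours, and ETS2 at 2.75 ± 0.0582 and ELK4 at 2.55 ± 1.33 were lowest and overlapped. Of the 9 pairs of neighbours, 6 overlapped. Dropping neg.si replicate 3 brought that number to 2, while the number was 8 with replicate 1 dropped, which put ELK3 first and ETS2 last. In RIPK4.si, ELK1 was at 5.53 ± 0.624 CPM per kb and ranked 7, between GABPA at 6.06 ± 0.403 and ETV6 at 4.54 ± 0.784. ERF, at 15.4 ± 3.47, was still first and ELK4, at 1.93 ± 0.616, still last. The lower rank of ELK1 there follows from the contrast on which it was selected, and nothing is read from it. In neg.si, ELK1 and ELK3 had like means but crossed between libraries, with 18.5 and 12.8 CPM per kb in replicate 1 and 11.3 and 18.3 CPM per kb in replicate 3.

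Set against the whole ETS family, the 9 ETS genes of the 10 held ranks 4 to 15 by mean level per kb. Of 28 family genes, 25 were in the table, ERG, SPIC and SPDEF were not listed, and ELF3, ELF5, SPI1 and SPIB did not pass the filter on low counts. The 2 highest in neg.si were ETV4 at 62.8 ± 15.1 CPM per kb and ETV5 at 52.4 ± 2.36 CPM per kb, PEA3-group factors whose transcription is known to follow ERK activity. Their libraries overlapped with each other and lay above those of the next gene, ETV1, the third PEA3-group factor, at 17.7 ± 2.97 CPM per kb. ETV3 (4.82), ELF2 (3.08), EHF (2.65) and ELF4 (1.34) had means between those of GABPA and the rarest genes. FEV, ETV7, ETV2, FLI1 and ETV3L were under 1 CPM per kb, at 0.626, 0.479, 0.463, 0.289 and 0.150. The 4 that did not pass the filter had 0.0582 (SPI1), 0.0365 (ELF3), 0.0101 (SPIB) and 0.00883 (ELF5).

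**Figure D4:**
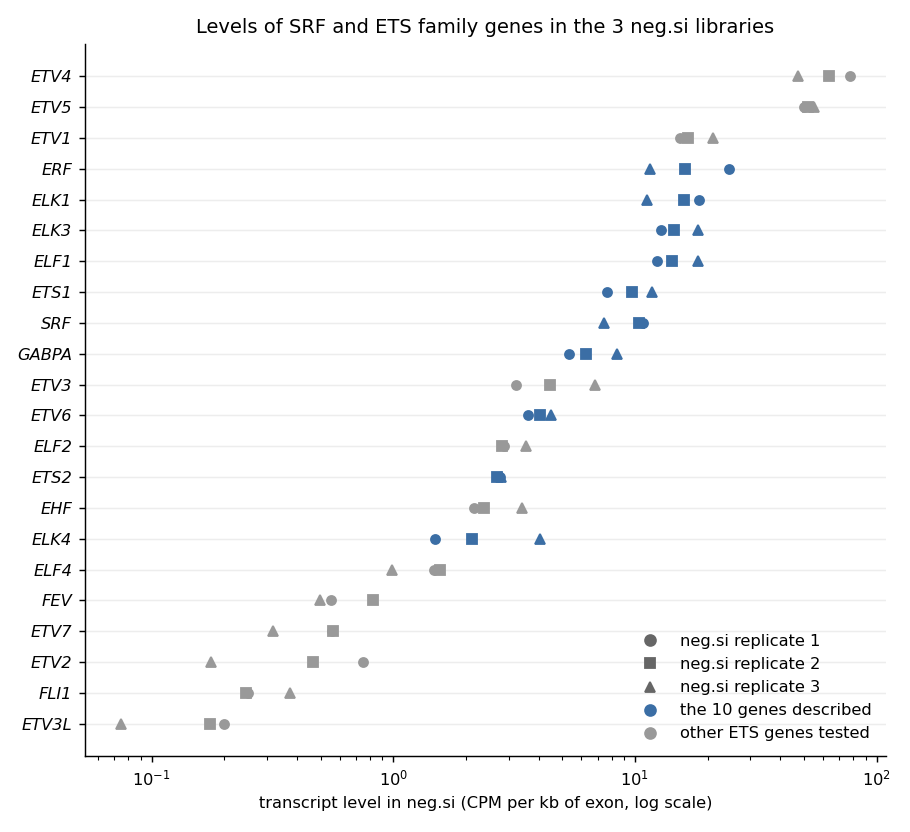
Level in CPM per kb of exon (x axis, log scale) of SRF and the tested ETS family genes in the 3 neg.si libraries (a symbol per replicate), the 10 genes in blue and the others in grey. ETV4 and ETV5 lie to the right of all others, and the 10 genes have means from 2.55 to 17.4.

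Among the 21 tested ETS genes edgeR called 1 (0.767% over all genes), the gene ELK1 that was selected on this contrast, so nothing is read from it. An unadjusted p under 0.05 was found for 3, ELK1 among them (10.8% over all genes), and DESeq2 called 1 (2.78% over all genes). Without neg.si replicate 2, or without RIPK4.si replicate 1, 2 or 3, edgeR called 0. Over the 21 the median log2 fold change was -0.14, against -0.02 over all genes. Groups without overlap were seen in 6 of them (17.6% over all genes), ETS2 and ELF4 above and ELK1, ETV5, EHF and FLI1 below. ETV5 had 290.2, 301 and 317 CPM in neg.si and 264, 222 and 260.0 CPM in RIPK4.si, lower in all RIPK4.si libraries, with a log2 fold change of -0.28 that was not called. ELF4 had a log2 fold change of 0.54 and EHF one of -0.57, neither called.

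Immediate-early genes are the classical targets of SRF with ELK1, ELK3 or ELK4, and all 30 of the list were tested. By edgeR 3 were called, EGR3 and MCL1 that fell and CCN1 that rose (0.767% over all genes). With an unadjusted p under 0.05 there were 10 (10.8% over all genes), and DESeq2 called 4 (2.78% over all genes). Their median log2 fold change was -0.08, against -0.02 over all genes. Without neg.si replicate 2, or without RIPK4.si replicate 1, 2 or 3, the count was 0. With the GC trend removed it was 5, when 536 of all 16297 genes were called. EGR3, a zinc-finger factor, had 58.8, 60.7 and 64.3 CPM in neg.si and 21.5, 22.5 and 27.5 CPM in RIPK4.si. All RIPK4.si libraries were far below all neg.si libraries. EGR3 had a log2 fold change of -1.36 (SE 0.158, lower in 3 of 3 libraries) and an adjusted p of 0.0111 from the quasi-likelihood test of edgeR with Benjamini-Hochberg adjustment (range over alternatives 2.1e-10 to 0.129). That adjusted p for EGR3 was 0.129 with neg.si replicate 2 left out, and 0.102, 0.0738 and 0.0758 with RIPK4.si replicate 1, 2 or 3 left out.

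MCL1, a BCL2-family protein that opposes apoptosis and a known target of ELK1 and ELK4 with SRF, had 230.3, 279 and 368 CPM in neg.si and 135, 133 and 143 CPM in RIPK4.si. The neg.si libraries were spread widely but stayed above every RIPK4.si library. In log2 terms MCL1 changed by -1.09 (SE 0.187, lower in 3 of 3 libraries), with an adjusted p of 0.0397 from the quasi-likelihood test of edgeR with Benjamini-Hochberg adjustment (range over alternatives 3.79e-05 to 0.251). The adjusted p for MCL1 was 0.251 with neg.si replicate 2 left out, and 0.195, 0.149 and 0.246 with RIPK4.si replicate 1, 2 or 3 left out.

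IER2, a short-lived nuclear protein, had 46.1, 39.0 and 33.8 CPM in neg.si and 24.0, 27.9 and 21.8 CPM in RIPK4.si. IER2 was lower in 3 of 3 RIPK4.si libraries but not called: its log2 fold change was -0.69, with an adjusted p of 0.140 from the quasi-likelihood test of edgeR with Benjamini-Hochberg adjustment (range over alternatives 0.0224 to 0.642). It was called, at 0.0438, without neg.si replicate 3, at 0.0224 with the GC trend removed and at 0.0499 by DESeq2. DUSP4, an ERK-induced phosphatase, had 739, 706 and 701 CPM in neg.si and 575, 562 and 619 CPM in RIPK4.si. It was lower in all RIPK4.si libraries, with a log2 fold change of -0.29 that was not called. Its mean CPM in neg.si was the highest of the list, although SPRY4 had 749 CPM in neg.si replicate 3. Per kb of exon SPRY4 was above DUSP4 in neg.si, at 103.7 against 98.4 CPM per kb. EGR1 and FOS, best known of the targets, were added after their values were seen. EGR1 had 60.2, 66.7 and 63.5 CPM in neg.si and 60.4, 69.0 and 61.6 CPM in RIPK4.si, overlapping throughout with a log2 fold change of 0.00. FOS had 4.94, 4.79 and 4.06 CPM in neg.si and 5.66, 6.65 and 4.44 CPM in RIPK4.si, also overlapping, with a log2 fold change of 0.28.

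Of the 30 immediate-early genes 19 had promoters in the table, with 25 windows, and 2 held a CArG box, EGR1 and EGR2, against 1.60% of all genes. Because the list is of classical targets of SRF, nothing is read from that number. The promoter of EGR1 holds 2 boxes, and the farther from the start is shown as part of a textbook serum response element. It lies at chr5:138465364-138465393 on the plus strand of GRCh38.p14, 105 bases before the start, and capitals mark it.
EGR1: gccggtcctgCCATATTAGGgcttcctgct
EGR3 and MCL1 had no entry.

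Of 24 cytoskeletal and matrix-associated genes known as targets of SRF with MRTFA or MRTFB, all were tested and 2 were called, CCN1 and CCN2, and both rose (0.767% over all genes were called). The number with an unadjusted p under 0.05 was 7 (10.8% over all genes), and DESeq2 called 2 (2.78% over all genes). Over the list the median log2 fold change was 0.08, against -0.02 over all genes. Without neg.si replicate 2, or without RIPK4.si replicate 1, 2 or 3, edgeR called 0. CCN2, a secreted matricellular protein also called CTGF, had 56.8, 62.6 and 58.9 CPM in neg.si and 131, 149 and 139.9 CPM in RIPK4.si. Every RIPK4.si library was above every neg.si library, with little spread in either group. CCN2 had a log2 fold change of 1.24 (SE 0.139, higher in 3 of 3 libraries) and an adjusted p of 0.0102 from the quasi-likelihood test of edgeR with Benjamini-Hochberg adjustment (range over alternatives 1.56e-10 to 0.129). The adjusted p for CCN2 was 0.129 with neg.si replicate 2 left out, and 0.0940, 0.0593 and 0.100 with RIPK4.si replicate 1, 2 or 3 left out.

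CCN1, a related matricellular protein also called CYR61 that stands in both lists, had 5.39, 5.96 and 5.79 CPM in neg.si and 13.5, 17.1 and 13.7 CPM in RIPK4.si. It was higher in each RIPK4.si library than in any of neg.si, and the groups were well apart. CCN1 had a log2 fold change of 1.37 (SE 0.180, higher in 3 of 3 libraries), with an adjusted p of 0.0196 from the quasi-likelihood test of edgeR with Benjamini-Hochberg adjustment (range over alternatives 1.3e-07 to 0.174). The adjusted p for CCN1 was 0.174 with neg.si replicate 2 left out, and 0.0992, 0.0942 and 0.129 with RIPK4.si replicate 1, 2 or 3 left out. Both genes are also known targets of YAP and TAZ. VCL, which encodes the focal adhesion protein vinculin, had 118, 125 and 118 CPM in neg.si and 156, 152 and 157 CPM in RIPK4.si, higher in all RIPK4.si libraries, and FHL1, a LIM-domain protein, had a log2 fold change of 0.96. Neither was called. ACTB, the most abundant gene of the list, had 2144, 1962 and 1786 CPM in neg.si and 1776, 2052 and 2165 CPM in RIPK4.si, with overlapping groups.

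Among these genes 20 had promoters in the table, with 47 windows, and 9 of the 20 held a CArG box in any window (45.0%), against 1.60% of all genes. The share is per gene, and these genes had more windows each than the table as a whole. They were also listed as known targets of SRF, which binds this box, so nothing is read from the share. Those with a box were ACTG1, ACTG2, ACTN1, CNN2, FHL1, FHL2, FLNA, TGFB1I1 and TPM4, none of them called. A match for ACTG1, CNN2 and FLNA is shown so that the boxes can be set beside that of SRF. They lie at chr17:81512874-81512903 on the minus strand, chr19:1026509-1026538 on the plus strand and chrX:154374709-154374738 on the minus strand of GRCh38.p14, and capitals mark the box.
ACTG1: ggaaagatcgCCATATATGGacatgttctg
CNN2: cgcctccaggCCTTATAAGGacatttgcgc
FLNA: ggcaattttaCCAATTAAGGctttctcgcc
The log2 fold changes of the 3 genes were 0.16, 0.03 and 0.58, against 0.24 in SRF. ACTB, CCN1, MYL9 and TAGLN had no entry.

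**Figure D5:**
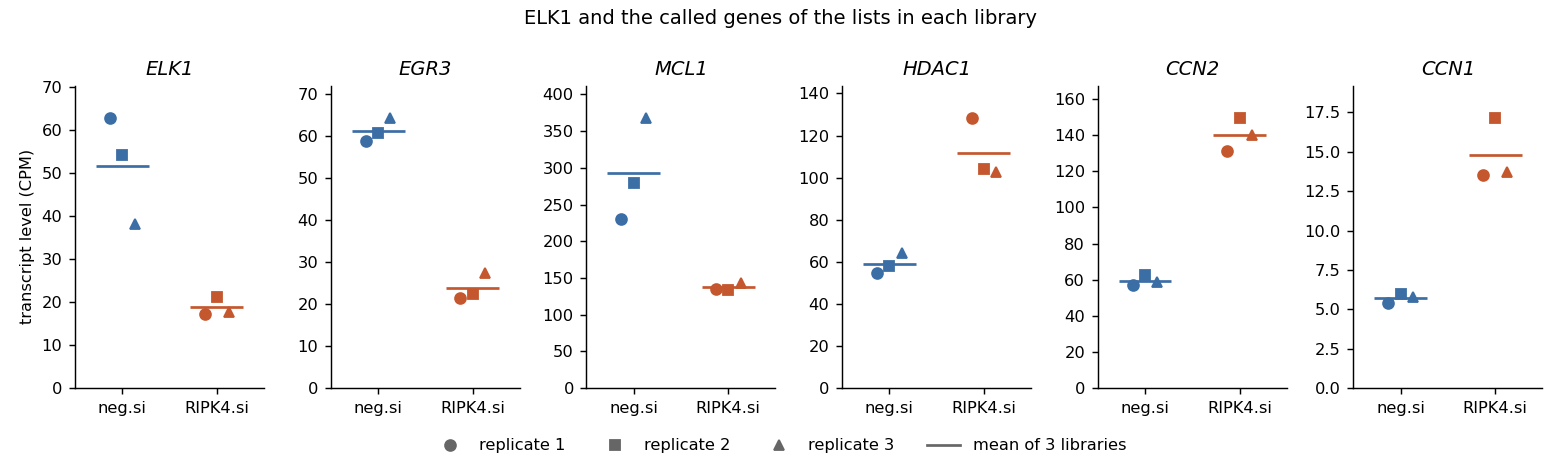
Transcript level in CPM (y axis, from 0) of ELK1 and the genes called in the lists of targets and cofactors. Points are the 3 neg.si and 3 RIPK4.si libraries, with a symbol per replicate, and lines are means. PMEL, called among the melanocyte markers, is not shown. EGR3 and MCL1 are lower in all RIPK4.si libraries, and CCN1, CCN2 and HDAC1 are higher in all of them.

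The cofactors of ELK1 and SRF on the list number 14, of which MYOCD was not listed in the table and 13 were tested. HDAC1, which rose, was the 1 gene called by edgeR (0.767% over all genes), 1 had an unadjusted p under 0.05 (10.8% over all genes) and DESeq2 called 1 (2.78% over all genes). Over the list the median log2 fold change was -0.07, against -0.02 over all genes. HDAC1, a histone deacetylase that represses with SIN3A and can be recruited by ELK1, had 54.5, 58.2 and 64.4 CPM in neg.si and 128, 104 and 103 CPM in RIPK4.si. All RIPK4.si libraries were above all neg.si libraries. HDAC1 had a log2 fold change of 0.92 (SE 0.155, higher in 3 of 3 libraries) and an adjusted p of 0.0397 from the quasi-likelihood test of edgeR with Benjamini-Hochberg adjustment (range over alternatives 4.32e-05 to 0.279). That adjusted p was 0.0659 with neg.si replicate 1 left out, 0.279 with neg.si replicate 2 left out, and 0.184, 0.116 and 0.214 with RIPK4.si replicate 1, 2 or 3 left out, and the count was 0 in each of these 5 cases. The coactivator MRTFB had a log2 fold change of -0.27 and the ligase PIAS2 one of 0.23, and neither was called.

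Of the 9 MAP kinases that can phosphorylate ternary complex factors, MAPK10 did not pass the filter on low counts and 8 were tested. By edgeR 0 were called (0.767% over all genes) and 0 had an unadjusted p under 0.05 (10.8% over all genes), and DESeq2 called 0 (2.78% over all genes). Over the 8 the median log2 fold change was -0.03, against -0.02 over all genes. MAPK14, which encodes p38 alpha, had 48.7, 51.2 and 56.1 CPM in neg.si and 46.1, 47.0 and 46.8 CPM in RIPK4.si, with all RIPK4.si libraries slightly below neg.si and a log2 fold change of -0.16. The JNK genes MAPK8 and MAPK9 had log2 fold changes of -0.21 and 0.23. These are transcript levels, and phosphorylation of the factors was not measured.

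For GABPA, 10 partners and targets were looked at, and by edgeR 0 were called (0.767% over all genes), 2 had an unadjusted p under 0.05 (10.8% over all genes) and DESeq2 called 1 (2.78% over all genes). Their median log2 fold change was -0.04, against -0.02 over all genes. GABPB1 and GABPB2, the partner subunits, had log2 fold changes of 0.16 and 0.68. SKP2, a subunit of a ubiquitin ligase and a GABP target, had 25.1, 24.6 and 40.4 CPM in neg.si and 17.9, 11.2 and 15.7 CPM in RIPK4.si. The RIPK4.si libraries were below the neg.si ones in 3 of 3, and neg.si replicate 3 was the highest. For SKP2 the log2 fold change was -1.01, with an adjusted p of 0.128 from the quasi-likelihood test of edgeR with Benjamini-Hochberg adjustment (range over alternatives 0.00763 to 0.473), and it was called by DESeq2, at 0.00763, and with the GC trend removed, at 0.0231. ATP5F1B, of the mitochondrial ATP synthase and the most abundant, had 841, 771 and 574 CPM in neg.si and 642, 906 and 644 CPM in RIPK4.si, with overlapping groups.

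An ETS match, CCGGAAG, was searched on both strands of the promoters and stands in those of 3321 of 27305 genes (12.2%), counted per gene as for the CArG box. Of the 9 genes with an entry it was found in ELK4 and GABPA, and of the 8 GABP partners and targets with an entry it was in TFB1M, COX4I1 and COX5B. Since these 8 were listed as partners or known targets, nothing is read from the number with a match. A match each of ELK4, GABPA and COX5B is shown since the first 2 are themselves ETS genes. They lie at chr1:205632016-205632044 on the minus strand and, for GABPA, chr21:25734895-25734923 on the minus strand, opposite to the gene. That of COX5B is at chr2:97646014-97646042 on the plus strand, all of GRCh38.p14, with the 7 letters in capitals.
ELK4: cagcccctcccCCGGAAGtgacgtgtagc
GABPA: cggagccagggCCGGAAGtagagcggagg
COX5B: gaagcccgcccCCGGAAGtccctcctgtc
ELK4 and GABPA, the genes with this match, had log2 fold changes of -0.40 and -0.14. GABPB2 and ATP5F1B had no entry.

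Of 11 genes known as targets of ETS1 or ETS2, MMP3, MMP9, PLAU and ANGPT2 did not pass the filter on low counts. Of the 7 tested, edgeR called 0 (0.767% over all genes), 1 had an unadjusted p under 0.05 (10.8% over all genes) and DESeq2 called 1 (2.78% over all genes). Their median log2 fold change was -0.23, against -0.02 over all genes. ANPEP, the cell-surface aminopeptidase CD13, had 10.3, 8.76 and 8.81 CPM in neg.si and 5.76, 3.70 and 5.79 CPM in RIPK4.si. It was lower in 3 of 3 RIPK4.si libraries, with a log2 fold change of -0.87 and an adjusted p of 0.135 from the quasi-likelihood test of edgeR with Benjamini-Hochberg adjustment (range over alternatives 0.0251 to 0.443). DESeq2 called ANPEP, with 0.0251. MMP1, the interstitial collagenase, had 169, 179 and 182 CPM in neg.si and 195, 229 and 194 CPM in RIPK4.si, above neg.si in all RIPK4.si libraries, with a log2 fold change of 0.22 that was not called. ITGB3, the integrin beta 3 gene and the most abundant in CPM, had one of -0.36 and TIMP1 one of -0.35, and neither was called. Per kb of exon TIMP1 was above ITGB3 in neg.si, at 180.7 against 97.0 CPM per kb.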

How the data were processed

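Poly(A) RNA of 3 neg.si and 3 RIPK4.si libraries was sequenced as read pairs, and the authors used Cutadapt for trimming, TopHat for alignment to GRCh38.p13 and HTSeq, without strand, for counting per gene. The deposited counts are the authors' whole read pairs per gene, not normalized. The 6 columns of normalized counts, and the authors' fold change and p columns, which hold their own comparison, were not used. The 10 genes and all lists were chosen with earlier results of these data known.

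All genes were fitted in R 4.3.3 with edgeR 4.0.16 (TMM, filterByExpr, quasi-likelihood test of group, Benjamini-Hochberg adjustment). The SE is the log2 fold change divided by the square root of F. Lengths, GC content, overlaps and 3′ UTRs came from GENCODE, promoters from RefSeq. Named genes were the 10, RIPK4, measured ETS genes and the 5 profiles nearest to ELK1. In each other list they were called genes, the 4 with the smallest p and the most abundant in CPM. Not every gene this rule picks is given. Alternatives were DESeq2 1.42.0, edgeR with DESeq2's size factors or with upper-quartile scaling, no filter or at least 10 counts per library, a replicate block, removal of each library's GC trend by lowess with span 0.3 (alone and with the block), each library left out, and for levels the longest transcript as length. The fit was tested on simulated data. Python 3.11.15, numpy 2.4.6, pandas 2.3.3, scipy 1.17.1 and matplotlib 3.10.9 were used.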

Additional observations from a re-analysis of the deposited data

How the results depend on the processing

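Whether replicate numbers pair across groups could not be told from the libraries. The correlation of deviations from the group means was -0.242, 0.251 and 0.346 for the same number. For different numbers it ran from -0.498 to 0.413. With a block on the number, 131 genes were called in place of 125. ELK1 kept its direction in every alternative, and all 140 values of the 10 genes moved by less than the SD between replicates. The sign of ELK3, ELK4, ERF, GABPA and ELF1 nevertheless changed in at least 1 setting with a library left out. DESeq2 called 430 genes, removal of the GC trend 536, and both GC removal and block 425. The count with 1 library left out was 0 to 295. For immediate-early genes (3) it was 5 with the GC trend removed and 0 to 4 with 1 library left out. Leaving out 1 library gave 0 to 1 in the ETS family, 0 to 2 in cytoskeletal genes, 0 to 1 in cofactors and 2 to 8 overlapping neighbours in the order of levels. GABP partners and targets had 1 called by DESeq2, 1 with the GC trend removed and 1 with GC removal and block, and ETS1 and ETS2 targets 1 by DESeq2 and 1 with GC removal and block. The cause of each shift was not tested, and a library left out also means fewer samples. Of 45 other named genes, 10 were called, and each of the 10 lost its call in at least 1 setting with a library left out (42 values), while 2 values gained one. CSF3 alone also lost its call when edgeR used the size factors of DESeq2, and with the replicate block. No called gene changed direction.

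Counting error was small beside the spread between replicates for the 10 genes except ETS2 in neg.si, with 428, 401 and 441 counts. ETS genes under the filter on low counts gave no fold change. With 3 libraries a group the 95% intervals are wide, as for ELK4 (-1.23 to 0.42). Even that of ETS2, the narrowest of the 10, was -0.09 to 0.67, so small differences were not detectable. Strand was not recorded, which leaves ELK3, ELK4, ETS2 and GABPA uncertain where other genes overlap them, and a gene on the same strand overlaps ERF.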
